A study of Mus musculus with 18 samples.

Results

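The genes described are 10 genes that mark Paneth cells of the small intestine: *Lyz1*, *Defa24*, *Defa22*, *Mmp7*, *Pla2g2a*, *Ang4*, *Itln1*, *Habp2*, *Mptx1* and *Mptx2*. They are 10 of the 47729 genes of the count table, matched by symbol, and all 10 are in it. They were chosen by measured values of these mice, for a rise in WT AOM/DSS colon over WT control colon, to ask whether Paneth cell genes appear in a diseased colon. Values of that comparison are therefore given as a description, with no test. The values bear out the label for 7 of the 10 genes. *Mptx1* and *Mptx2* were lower, not higher, in every WT AOM/DSS mouse than in every WT control mouse, and the groups overlapped for *Ang4*.

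Paneth cells sit at the base of small intestinal crypts, between the stem cells, and release granules that hold antimicrobial proteins. The healthy mouse colon has few or none, and their appearance outside the small intestine, called Paneth cell metaplasia, is known from inflamed bowel. Lysozyme, alpha-defensins, a secreted phospholipase A2 and the protease that activates alpha-defensins are granule products used as markers of these cells.

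RNA was sequenced from the colon of 9 C57BL/6 mice, 1 library on 2 lanes for each mouse. Mice 1 to 3 were WT control mice by their treatment label, although their protocol text names AOM and DSS as it does for all samples. Mice 4 to 6 were WT AOM/DSS mice, which had 1 dose of the carcinogen azoxymethane (AOM, 10 mg/kg) and 3 cycles of 2.5% dextran sulfate sodium (DSS), a treatment that yields colitis-associated colon cancer. Mice 7 to 9 were Claudin-2TG AOM/DSS mice (Villin-Cldn2TG, here *Cldn2*TG), given the same treatment, in which the villin promoter drives claudin-2, a pore-forming tight junction protein, in the epithelium of both small intestine and colon. No untreated *Cldn2*TG mice and no separate tumor samples were analysed here, so that a *Cldn2*TG difference from WT control mice holds genotype and treatment together.

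The libraries held 14142711 to 22262546 counts, so that 3 counts in a mouse, the limit that a count of 0 allows, corresponded to 0.13 to 0.222 CPM. CPM are counts relative to library size, scaled with TMM factors over the 9 mice. *Cldn2* itself was at 191, 259 and 245 CPM in the WT control mice, 119, 137 and 132 CPM in the WT AOM/DSS mice and 208, 218 and 251 CPM in the *Cldn2*TG mice. Mouse 1, a WT control, stood apart from the other 8 in sex: it had 214 CPM of *Xist* against at most 0.203 CPM elsewhere. Its Y-linked genes summed to 0.498 CPM against at least 146 CPM. The labels give no sex. Calls of members and gene lists against WT control mice are given without this mouse too. *Car4*, a carbonic anhydrase of colonocytes, was at 283 to 2080 CPM. Of 16 small intestinal enterocyte markers, *Apoa1*, *Apoa4*, *Apoc3*, *Sis* and *Lct* had at most 6 counts in any mouse, whereas *Slc5a1* was at 124 to 237 CPM, *Fabp2* at 19.0 to 115 CPM and *Rbp2* at 15.9 to 44.4 CPM.

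Promoter sequence was available for 8 of the 10 genes, as RefSeq windows of 300 bases on GRCm38.p6, from 250 bases before to 50 bases after the start. Paneth cell genes are textbook targets of Wnt signaling, so the windows were searched on both strands for TCAAAG, the core that TCF/LEF factors recognise. Of all 32851 windows in the table, 16.0% held it. Among the members it was in a window of *Mmp7*, *Defa22* and *Mptx1*, and in none of those of *Lyz1*, *Itln1*, *Mptx2*, *Ang4* and *Habp2*. The windows of these 3 genes and of *Lyz1* are printed 5′ to 3′ on the strand of the gene, with the match in capitals (in *Mptx1* it is on the other strand and reads CTTTGA). The table holds a second window of *Mmp7*, chr9:7692091-7692390, which overlaps the printed one and holds the same match. A match is a description of letters, not evidence of a site.
*Mmp7*, chr9:7691840-7692139, plus strand: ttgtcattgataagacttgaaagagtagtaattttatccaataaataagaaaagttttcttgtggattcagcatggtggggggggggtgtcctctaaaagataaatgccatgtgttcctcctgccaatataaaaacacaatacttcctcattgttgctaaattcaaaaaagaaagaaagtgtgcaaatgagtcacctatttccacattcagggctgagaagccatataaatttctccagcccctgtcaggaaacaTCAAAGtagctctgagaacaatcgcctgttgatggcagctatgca
*Defa22*, chr8:21162027-21162326, plus strand: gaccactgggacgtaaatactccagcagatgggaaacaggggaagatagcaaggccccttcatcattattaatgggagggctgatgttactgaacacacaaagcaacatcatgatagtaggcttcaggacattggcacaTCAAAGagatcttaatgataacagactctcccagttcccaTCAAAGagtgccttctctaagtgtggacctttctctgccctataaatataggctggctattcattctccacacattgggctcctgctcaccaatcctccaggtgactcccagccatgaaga
*Mptx1*, chr1:174330268-174330567, plus strand: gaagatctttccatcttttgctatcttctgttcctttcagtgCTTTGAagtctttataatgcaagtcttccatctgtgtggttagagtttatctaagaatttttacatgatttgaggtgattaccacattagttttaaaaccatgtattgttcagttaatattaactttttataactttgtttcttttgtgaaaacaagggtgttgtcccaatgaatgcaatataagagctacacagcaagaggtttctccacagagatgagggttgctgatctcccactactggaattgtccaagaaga
*Lyz1*, chr10:117292819-117293118, minus strand: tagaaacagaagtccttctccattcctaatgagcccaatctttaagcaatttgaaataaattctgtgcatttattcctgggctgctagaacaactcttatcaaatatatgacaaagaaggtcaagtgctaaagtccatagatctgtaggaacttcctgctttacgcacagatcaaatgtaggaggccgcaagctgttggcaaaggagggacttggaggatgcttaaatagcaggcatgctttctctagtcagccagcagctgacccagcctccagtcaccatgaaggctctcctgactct

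The 2 alpha-defensin members lie in the defensin cluster of chromosome 8 on the plus strand of GRCm38, *Defa22* at 21162277 to 21163249 and *Defa24* at 21734494 to 21735471. Their coding sequences, from the GENCODE M21 transcripts, are 282 bases each and agreed at 81.5% of the aligned columns. They are printed because reads of such close paralogs can be split or shared, and capitals mark the bases that do not match the other gene in the alignment. Of the first 141 bases, which fall in the signal and propeptide, 8 do not match, against 41 of the last 141, which include the mature peptide.
*Defa22* coding sequence: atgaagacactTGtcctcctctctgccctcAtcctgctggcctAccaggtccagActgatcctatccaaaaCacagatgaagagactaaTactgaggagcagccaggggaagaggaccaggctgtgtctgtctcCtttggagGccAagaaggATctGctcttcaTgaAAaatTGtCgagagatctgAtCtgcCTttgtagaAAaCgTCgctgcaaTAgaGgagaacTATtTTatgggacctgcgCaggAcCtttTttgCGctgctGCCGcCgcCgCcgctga
*Defa24* coding sequence: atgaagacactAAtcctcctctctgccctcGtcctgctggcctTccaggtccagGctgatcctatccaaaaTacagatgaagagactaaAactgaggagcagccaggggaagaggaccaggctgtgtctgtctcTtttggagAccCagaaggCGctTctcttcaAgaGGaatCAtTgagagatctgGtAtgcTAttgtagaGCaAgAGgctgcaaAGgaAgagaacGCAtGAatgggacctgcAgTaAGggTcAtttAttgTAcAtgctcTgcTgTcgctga

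*Lyz1* encodes the lysozyme of Paneth cell granules, which cuts bacterial cell walls (chromosome 10, 117287796 to 117292868, minus strand). It was at 3.14, 2.81 and 3.82 CPM in the WT control mice, at 128, 172 and 998 CPM in the WT AOM/DSS mice and at 13.5, 17.8 and 8.79 CPM in the *Cldn2*TG mice. The groups did not overlap: every WT AOM/DSS mouse was highest, every *Cldn2*TG mouse was in between, and mouse 6 alone was at 998 CPM. The mean of WT AOM/DSS mice, 432 ± 490 CPM (SD, n = 3), was 133-fold that of WT control mice. In *Cldn2*TG mice *Lyz1* fell by 5.03 on the log2 scale (SE, the standard error of a log2 fold change, 0.96; adjusted p = 0.0276, edgeR's quasi-likelihood test with Benjamini-Hochberg adjustment over all genes) against WT AOM/DSS mice. That comparison shares mice 4 to 6 with the choice of the genes, so it is no independent test of their level there. Against WT control mice, *Lyz1* rose in the *Cldn2*TG mice by 2.04 (SE 0.26, adjusted p = 0.00227). The *Cldn2*TG mice had no part in the choice of the genes, the WT control mice did. Without mouse 1 the rise was 2.02 (adjusted p = 0.0139). Mouse 6 set much of the size of the other values: without it *Lyz1* fell by 3.48 against WT AOM/DSS mice, and the log2 fold change of WT AOM/DSS over WT control mice went from 7.08 to 5.54.

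**Figure D1:**
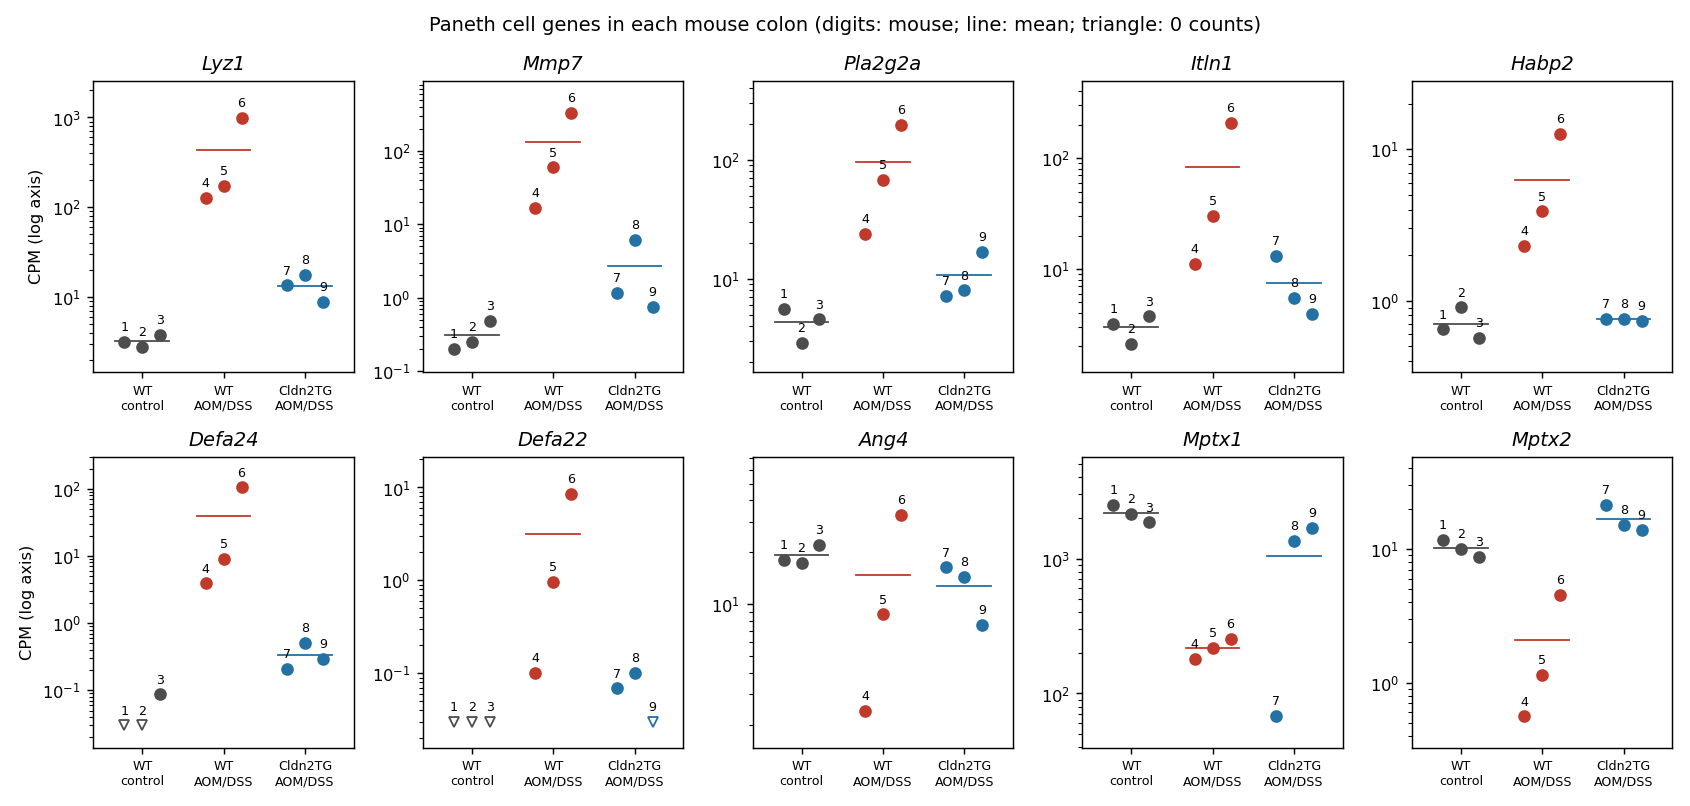
Level of each of the 10 Paneth cell genes in each mouse, in CPM on a log axis that differs between panels. Points are mice 1 to 9, lines are group means, and open triangles at the base of a panel are mice with 0 counts. *Lyz1*, *Mmp7*, *Pla2g2a*, *Itln1*, *Habp2*, *Defa24* and *Defa22* have their highest group mean in the WT AOM/DSS mice, whereas *Mptx1* and *Mptx2* are below the WT control mice there. For *Itln1*, mouse 7 is above mouse 4.

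Because *Lyz1* and *Lyz2*, the lysozyme of macrophages, are neighbours with close sequences, both were set side by side. Their coding sequences of 447 bases differ at 22 positions (95.1% identical), and the longest run that their transcripts share is 118 bases. The ratio of *Lyz1* to *Lyz2* counts was 0.0479, 0.0914 and 0.111 in the WT control mice, 1.75, 1.41 and 6.84 in the WT AOM/DSS mice, and 0.395, 0.686 and 0.704 in the *Cldn2*TG mice. The counts of *Lyz1* thus did not follow those of *Lyz2* in a fixed share. *Lyz2* itself rose in WT AOM/DSS mice (log2 fold change 1.40, adjusted p = 0.0425, edgeR) and fell in *Cldn2*TG against WT AOM/DSS mice (log2 fold change -2.25, adjusted p = 0.0188). *Lyz2* had 1316, 613 and 795 counts in the WT control mice, in which *Lyz1* had 63, 56 and 88. What part of the low *Lyz1* counts there are reads of *Lyz2* was not tested.

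**Figure D2:**
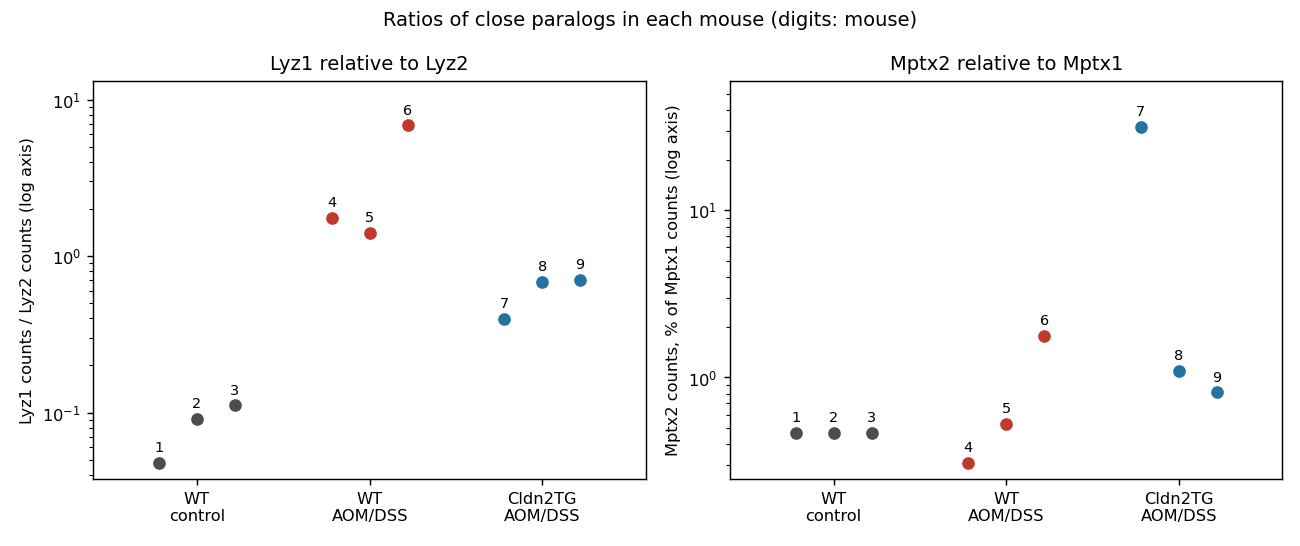
Ratios of close paralogs in each mouse on log axes: *Lyz1* counts over *Lyz2* counts (left) and *Mptx2* counts as a percent of *Mptx1* counts (right). Points are mice. *Lyz1* exceeds *Lyz2* in the WT AOM/DSS mice only among these 9 mice, and mouse 7 stands apart with *Mptx2* at 31.5% of *Mptx1*.

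Alpha-defensins are small peptides that pierce bacterial membranes and are the granule products most particular to Paneth cells. *Defa24* had 0, 0 and 2 counts in the WT control mice, 77, 204 and 1572 counts in the WT AOM/DSS mice and 3, 10 and 4 counts in the *Cldn2*TG mice. In CPM the WT AOM/DSS mice were at 3.91, 9.02 and 105 and the *Cldn2*TG mice at 0.207, 0.507 and 0.295. Every WT AOM/DSS mouse was thus above every other mouse. Over the 3 mice of a group, the ratio of WT AOM/DSS to WT control was 1020 (95% exact interval 282 to 8432, which covers counting error only). Against WT AOM/DSS mice the *Cldn2*TG mice were lower by a log2 fold change of -6.79 (SE 1.69), given as a description. *Defa24* passed the filter there only through the WT AOM/DSS mice, on which it was chosen. Without mouse 6 that value was -4.19, and the fitted one of WT AOM/DSS over WT control mice went from 10.05 to 7.45. Without mouse 3, which held the only 2 counts of the WT control mice, the fitted one was 12.58. In the other comparison, with WT control mice, *Defa24* was under the filter on low counts. The *Cldn2*TG to WT control ratio over 17 and 2 counts was 11.2 (95% exact interval 2.66 to 100, counting error only), and with 3 mice against 3 the exact permutation test gave p = 0.1, the smallest it allows.

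*Defa22* was rarer, with no count in the WT control mice, 2, 22 and 127 counts in the WT AOM/DSS mice, and 1, 2 and 0 counts in the *Cldn2*TG mice. Mean level in WT AOM/DSS mice was at least 22.3-fold higher than in WT control mice at the limit of 3 counts per library. *Defa22* was under the filter in every comparison of 3 mice against 3. Over 3 and 151 counts, it was 42.0-fold lower in *Cldn2*TG than in WT AOM/DSS mice (95% exact interval 14.1 to 206, counting error only), given as a description, since *Defa22* was chosen on the WT AOM/DSS mice. In *Cldn2*TG and in WT control mice alike it was at or under the limit of detection.

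The table lists 43 further alpha-defensin entries, the pseudogenes named *Defa-ps* among them. None passed the filter in any comparison of 3 mice against 3. Counts summed over all 45 alpha-defensins were 0, 0 and 2 in the WT control mice, 87, 273 and 2195 in the WT AOM/DSS mice and 5, 16 and 5 in the *Cldn2*TG mice. *Defa24* made up 88.5%, 74.7% and 71.6% of these counts in mice 4, 5 and 6. More of the family was detected where the sum was larger: 7, 12 and 17 of the 45 entries had a count in mice 4, 5 and 6. The 17 of mouse 6 include the pseudogenes *Defa-ps6* (7 counts) and *Defa-ps1* (2 counts). *Defa30* followed *Defa24* in size in mouse 6, with 1, 19 and 221 counts in the WT AOM/DSS mice. Behind *Defa22*, *Defa21* (0, 7 and 95 counts) and *Defa17* (3, 9 and 82 counts) were next in mouse 6. How reads were divided among these genes is uncertain for some of them, since 91.3% of the runs of 75 bases in *Defa17* transcripts and 56.2% of those in *Defa22* recur in another alpha-defensin. For *Defa24* the share was 6.67%.

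**Figure D3:**
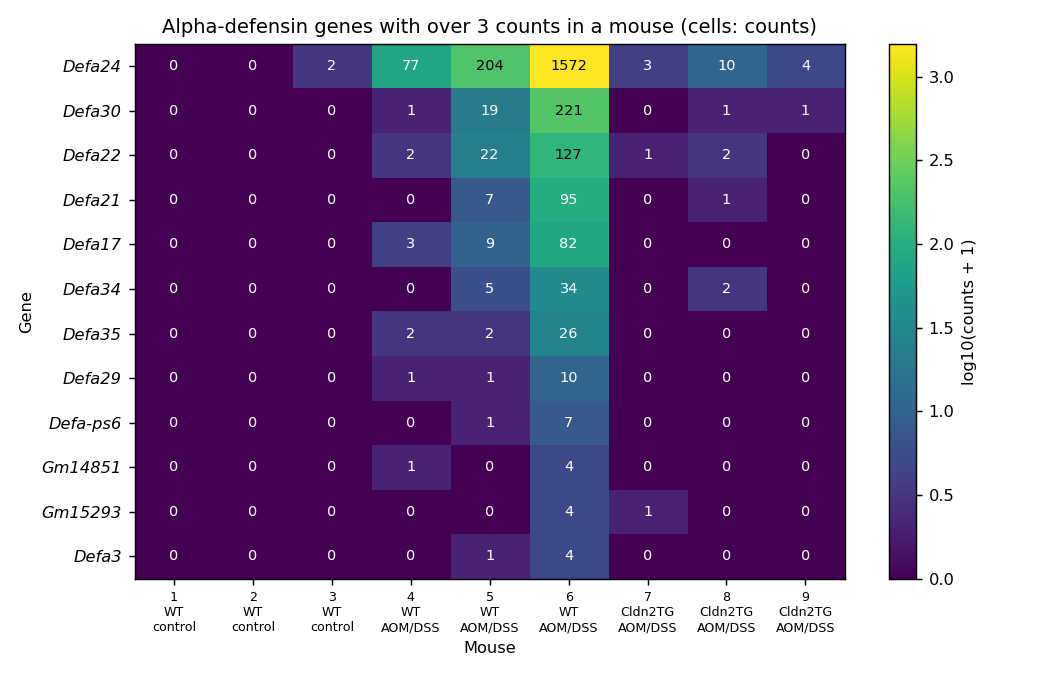
Counts of the alpha-defensin genes that exceed 3 counts in at least 1 mouse, with genes as rows and mice as columns; the colour is log10(counts + 1) and the digits are counts. Mouse 6 holds the most counts of every gene shown, from 1572 for *Defa24* to 4 for *Defa3*.

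*Mmp7* encodes matrilysin, the protease that cuts pro-alpha-defensins to their active form in mouse Paneth cells (chromosome 9, 7692090 to 7699585, plus strand). It was at 0.199, 0.251 and 0.478 CPM in the WT control mice, at 16.9, 59.7 and 327 CPM in the WT AOM/DSS mice and at 1.17, 6.08 and 0.739 CPM in the *Cldn2*TG mice. No 2 groups overlapped, and WT AOM/DSS mice averaged 435-fold the WT control mice, the largest such ratio among the members with over 3 counts in each group. *Mmp7* did not pass the test in *Cldn2*TG against WT AOM/DSS mice (log2 fold change -5.58, SE 1.39, adjusted p = 0.0592, edgeR), and did in DESeq2 (adjusted p = 0.000387). Since *Mmp7* was chosen on the WT AOM/DSS mice, neither is an independent test. Over WT control mice *Mmp7* had a log2 fold change of 3.11 (SE 0.90) in the *Cldn2*TG mice, given as a description. It passed the filter there only through the *Cldn2*TG mice, having 4, 5 and 11 counts in the WT control mice. The *Cldn2*TG mice spread 8.23-fold among themselves for this gene, with mouse 8 highest, and without mouse 8 that log2 fold change was 1.59 and the one against WT AOM/DSS mice -7.13. Without mouse 6 the latter was -3.77, and the log2 fold change of WT AOM/DSS over WT control mice went from 8.73 to 6.92.

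*Pla2g2a*, a gene of a secreted phospholipase A2, lies on the plus strand of chromosome 4 at 138831857 to 138835186, inside *Pla2g5* on the other strand, with no shared exon bases. Only its RNA was measured here, and whether these mice make the enzyme was not tested. It was at 5.62, 2.91 and 4.56 CPM in the WT control mice, at 23.7, 67.7 and 196 CPM in the WT AOM/DSS mice and at 7.16, 8.01 and 16.9 CPM in the *Cldn2*TG mice. The 3 groups were again in separate ranges, with the *Cldn2*TG mice nearer to the WT control mice. The mean of WT AOM/DSS mice was 21.9-fold that of WT control mice. Neither comparison of *Cldn2*TG mice passed in edgeR. Against WT AOM/DSS mice the log2 fold change was -3.19 (SE 0.81, adjusted p = 0.0592), and against WT control mice 1.29 (SE 0.37, adjusted p = 0.0625). DESeq2 called both, with adjusted p = 0.00414 and 0.00262. The first shares the WT AOM/DSS mice with the choice of the gene, the second the WT control mice, so neither is an independent test. Leaving out mouse 6 moved the first to -2.10, and the log2 fold change of WT AOM/DSS over WT control mice from 4.48 to 3.40.

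*Ang4*, a ribonuclease with bactericidal activity that goblet cells of the colon also make, went with neither pattern. It was at 18.1, 17.4 and 21.9 CPM in the WT control mice, at 2.39, 8.71 and 33.0 CPM in the WT AOM/DSS mice and at 16.3, 14.3 and 7.53 CPM in the *Cldn2*TG mice. Mice 4 and 5 were below every WT control mouse and mouse 6 above all of them. The mean of WT AOM/DSS mice, 14.7 ± 16.2 CPM (SD, n = 3), was below the 19.2 ± 2.43 CPM of WT control mice by less than the spread among the WT AOM/DSS mice. edgeR called it in neither comparison: the log2 fold change in *Cldn2*TG mice was -0.21 (SE 0.85, adjusted p = 0.93) against WT AOM/DSS mice and -0.58 (SE 0.25, adjusted p = 0.177) against WT control mice. With no filter on low counts the latter was called (-0.58, adjusted p = 0.00532). The first value has no fixed sign, since it was 1.20 without mouse 6, and neither has that of WT AOM/DSS over WT control mice, which went from -0.37 to -1.76 without mouse 6 and to 0.14 without mouse 4.

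*Itln1* encodes intelectin, a lectin that binds sugars of microbial surfaces (chromosome 1, 171518122 to 171535294, minus strand). It was at 3.18, 2.11 and 3.73 CPM in the WT control mice, at 11.2, 30.2 and 208 CPM in the WT AOM/DSS mice and at 13.2, 5.52 and 3.92 CPM in the *Cldn2*TG mice. Both treated groups lay above the WT control mice, and they overlapped each other, mouse 7 being above mouse 4. The mean of WT AOM/DSS mice was 27.7-fold that of WT control mice and 11.1-fold that of *Cldn2*TG mice. In edgeR *Itln1* passed in neither comparison of *Cldn2*TG mice: the log2 fold change was -3.49 (SE 1.18, adjusted p = 0.134) against WT AOM/DSS mice and 1.32 (SE 0.45, adjusted p = 0.11) against WT control mice. DESeq2 called both, with adjusted p = 0.0291 and 0.0115. Each shares a group of mice with the choice of the gene, so neither is an independent test. In edgeR the first was -1.45 without mouse 6 and -4.14 without mouse 7, and the second was 0.65 without mouse 7. The log2 fold change of WT AOM/DSS over WT control mice, 4.81, was 2.80 without mouse 6.

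*Habp2*, a serine protease that binds hyaluronan, was, in both treated groups, the lowest of the 5 higher members outside the alpha-defensins. It was at 0.65, 0.904 and 0.565 CPM in the WT control mice, at 2.29, 3.89 and 12.7 CPM in the WT AOM/DSS mice and at 0.76, 0.76 and 0.739 CPM in the *Cldn2*TG mice. The *Cldn2*TG mice thus lay within the range of the WT control mice, and apart from the WT AOM/DSS mice. It fell in *Cldn2*TG against WT AOM/DSS mice, by 3.06 on the log2 scale (SE 0.66, adjusted p = 0.0274, edgeR), and by 2.03 without mouse 6 (adjusted p = 0.0272). *Habp2* was chosen on the WT AOM/DSS mice, so neither is an independent test of its level there. The log2 fold change of WT AOM/DSS over WT control mice was 3.17, and 2.15 without mouse 6. Set against WT control mice, its log2 fold change was 0.11 (SE 0.36, adjusted p = 0.881). *Habp2* shares 268 of its 3193 exon bases (chromosome 19, 56287137 to 56320822, plus strand) with *Nrap* on the other strand, and the strand setting of the counting is not given in the sources used here. *Nrap* was at 17.9 to 42.3 CPM in the 9 mice and at 22.9, 28.2 and 22.0 CPM in mice 4, 5 and 6, in which *Habp2* was highest.

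*Mptx1* and *Mptx2* encode mucosal pentraxins, secreted proteins related to C-reactive protein, of which *Mptx1* is abundant in normal mouse colon and *Mptx2* is a Paneth cell marker of the small intestine. *Mptx1* was at 2497, 2150 and 1853 CPM in the WT control mice, at 181, 218 and 255 CPM in the WT AOM/DSS mice and at 67.8, 1358 and 1696 CPM in the *Cldn2*TG mice. Every WT AOM/DSS mouse lay below every WT control mouse, with means that differed 9.93-fold and little spread within either group. Mouse 7 stood apart from the other 2 *Cldn2*TG mice and was the lowest of all 9. The log2 fold change of *Cldn2*TG against WT AOM/DSS mice was 2.23 (SE 0.99, adjusted p = 0.249, edgeR). Without mouse 7 it was 2.79 and passed (adjusted p = 0.00407). For *Cldn2*TG against WT control mice the value was -1.06 (SE 1.15, adjusted p = 0.627), and without mouse 7 it was -0.51 (adjusted p = 0.0653).

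*Mptx2* was at 11.6, 9.99 and 8.64 CPM in the WT control mice, at 0.559, 1.15 and 4.55 CPM in the WT AOM/DSS mice and at 21.4, 15.0 and 13.8 CPM in the *Cldn2*TG mice. The 3 groups did not overlap, and here the *Cldn2*TG mice were highest. WT AOM/DSS mice averaged 4.84-fold below WT control mice. *Mptx2* rose in *Cldn2*TG mice by 3.03 on the log2 scale against WT AOM/DSS mice (SE 0.67, adjusted p = 0.0357, edgeR) and by 0.73 against WT control mice (SE 0.19, adjusted p = 0.0368). Without mouse 1 the latter was 0.86 (adjusted p = 0.0422). Without mouse 6 the former was 4.26, and the log2 fold change of WT AOM/DSS over WT control mice went from -2.29 to -3.52. Against WT AOM/DSS mice *Mptx2* passed the filter only with the *Cldn2*TG mice, since mouse 4, at 11 counts, was under it.

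The coding sequences of *Mptx1* and *Mptx2* are 92.0% identical over 660 bases, and their transcripts share a run of 112 bases. In the WT control mice *Mptx2* counts were 0.466%, 0.465% and 0.466% of *Mptx1* counts, almost a constant share. The share was 0.309%, 0.526% and 1.78% in the WT AOM/DSS mice and 31.5%, 1.1% and 0.814% in the *Cldn2*TG mice. At the control share, the *Mptx1* counts of mice 7, 8 and 9 would go with 4.58, 125 and 107 *Mptx2* counts, and 310, 296 and 187 were measured. *Mptx2* counts in these mice were therefore above that share, most of all in mouse 7. In mice 4, 5 and 6, 11, 26 and 68 counts were measured against 16.6, 23.0 and 17.8 at the control share, so mouse 6 was above it as well. Whether *Mptx2* counts of the WT control mice are reads of *Mptx1* was not tested.

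Levels between the genes can be set side by side per length, as TPM, counts per base of exon rescaled to a common total. In WT control mice the order was led by *Mptx1* at 6968 ± 911 TPM (SD, n = 3), then *Ang4* at 69.7 ± 11.0 and *Mptx2* at 32.7 ± 4.29. These 3 were apart from each other by more than their spread. *Pla2g2a* (12.1 ± 3.86 TPM), *Itln1* (6.82 ± 2.05 TPM) and *Lyz1* (6.65 ± 1.26 TPM) followed, the last 2 not differing beyond their spread, and the other 4 members were each under 1 TPM on average, with *Mmp7* highest at 0.752 ± 0.384 TPM. In WT AOM/DSS mice the means were 845 ± 958 TPM for *Lyz1* and 673 ± 128 TPM for *Mptx1*, ahead of *Mmp7* (312 ± 388 TPM), *Pla2g2a* (256 ± 239 TPM), *Defa24* (232 ± 337 TPM) and *Itln1* (181 ± 235 TPM). No 2 neighbours in that order differed beyond their spread. The place of *Lyz1* rested on mouse 6 (1950 against 789 TPM of *Mptx1*), since *Mptx1* was the higher in mice 4 (535 against 240 TPM) and 5 (695 against 345 TPM). In *Cldn2*TG mice *Mptx1* led again at 2817 ± 2290 TPM, and *Lyz1* was at 23.7 ± 8.54 TPM, close to *Pla2g2a* at 25.2 ± 11.3 TPM.

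The WT AOM/DSS mice differed widely among themselves. In all 10 members mouse 4 was the lowest and mouse 6 the highest of the 3, an order that 20.0% of all 15437 genes tested share. From mouse 4 to mouse 6 the level went up 26.9-fold for *Defa24*, 19.3-fold for *Mmp7*, 18.7-fold for *Itln1*, 7.8-fold for *Lyz1* and 5.57-fold for *Habp2*. *Mptx1*, at 1.41-fold, differed least. The rule names a rise and no order of the mice, but all 10 orders come from the same 3 mice and are not separate observations. In bulk colon, fewer Paneth cells and less RNA per cell cannot be told apart, and the place of the cells in the tissue was not measured.

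Across the 10 genes in *Cldn2*TG against WT AOM/DSS mice, 9 passed the filter, and 3 were called. *Defa24* passed it only through the WT AOM/DSS mice, and *Mptx2* only with the *Cldn2*TG mice. Of 14888 genes tested 9.54% were called, and nothing is read from the 2 side by side, since the genes were chosen for their values in mice 4 to 6. *Lyz1* and *Habp2* were the 2 called lower (7.35% of all genes were) and *Mptx2* the 1 called higher (2.19% of all genes). The groups did not overlap for 7 genes: 6 were lower in every *Cldn2*TG mouse (14.3% of all genes) and *Mptx2* was higher (14.2%). The 6 include *Defa24* and *Defa22*, which was not among the genes tested. *Defa22* had 2 counts in both mouse 4 and mouse 8 (0.102 and 0.101 CPM), so that they differ by library size alone. The members called depended on single mice, as did the calls over all genes, 1421 in the main fit. The latter were 555, 58, 108 and 460 without mouse 5, 8, 9 and 7, and 2894 and 805 without mouse 4 and 6. All 3 member calls were lost without mouse 5, 8 or 9, with adjusted p between 0.0508 and 0.118. Without mouse 7 they were lost as well (adjusted p = 0.101 for *Lyz1*, 0.109 for *Habp2* and 0.121 for *Mptx2*), and *Mptx1* was called in their place, whereas *Pla2g2a* joined the 3 without mouse 4 and the same 3 were called without mouse 6. *Defa22* without mouse 4 and *Defa24* without mouse 6 were called too and are left out here, as genes that pass the filter only through the mice they were chosen on. With no filter on low counts only *Habp2* kept its call (adjusted p = 0.0373). DESeq2 called 7 members, the 3 above and *Mmp7*, *Pla2g2a*, *Itln1* and *Defa24*, the last of which passed the filter only through the WT AOM/DSS mice. Over all genes DESeq2 called 2072, against 1421 in edgeR.

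Against WT control mice, 8 members passed the filter in *Cldn2*TG mice, *Mmp7* only through the *Cldn2*TG mice. Of these, 2 were called, *Lyz1* and *Mptx2*, both higher. Of the 15013 genes tested, 10.0% were called, 3.92% higher and 6.07% lower. There was no overlap for 8 of the 10: 6 were higher in every *Cldn2*TG mouse (14.9% of all genes) and 2, *Ang4* and *Mptx1*, were lower (16.3%). *Defa24*, under the filter, is among the 6. The median log2 fold change of the 8 that passed the filter was 1.01, beside 0.00 for all genes. Nothing is read from these values side by side, since the genes were chosen for a rise over the same WT control mice. *Lyz1* was called in 6 of 6 fits that left out a mouse and in 6 of 7 other alternatives, and not in the fit of all 9 mice (adjusted p = 0.24). *Mptx2* lost its call without mouse 2, 3, 7 or 8 (adjusted p = 0.0891, 0.141, 0.0967 and 0.0751), and also with all 9 mice (0.483), with library size only (0.0705) and on lane 2 alone (0.0902). Without mouse 1 both calls stood and no other member was called. The mean of *Lyz1* in *Cldn2*TG mice was 4.10-fold that of WT control mice, and 32.4-fold below that of WT AOM/DSS mice.

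For WT AOM/DSS against WT control mice, the comparison that chose the genes, 7 members were higher in every treated mouse, where 17.7% of 15437 genes were, and 2 were lower, where 20.3% were. Of these genes 15.0% were called by edgeR, 8.04% higher and 6.92% lower, which serves as the background for the gene lists that follow. Leaving out mouse 1, with 2 control mice left, lowered the calls over all genes from 2310 to 631 here, 3.96% of 15915 tested, with 2.44% higher and 1.53% lower. In *Cldn2*TG against WT control mice it lowered them from 1501 to 958, 6.25% of 15334 tested, with 2.6% higher and 3.65% lower. List calls without mouse 1 are to be read against these shares.

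**Figure D4:**
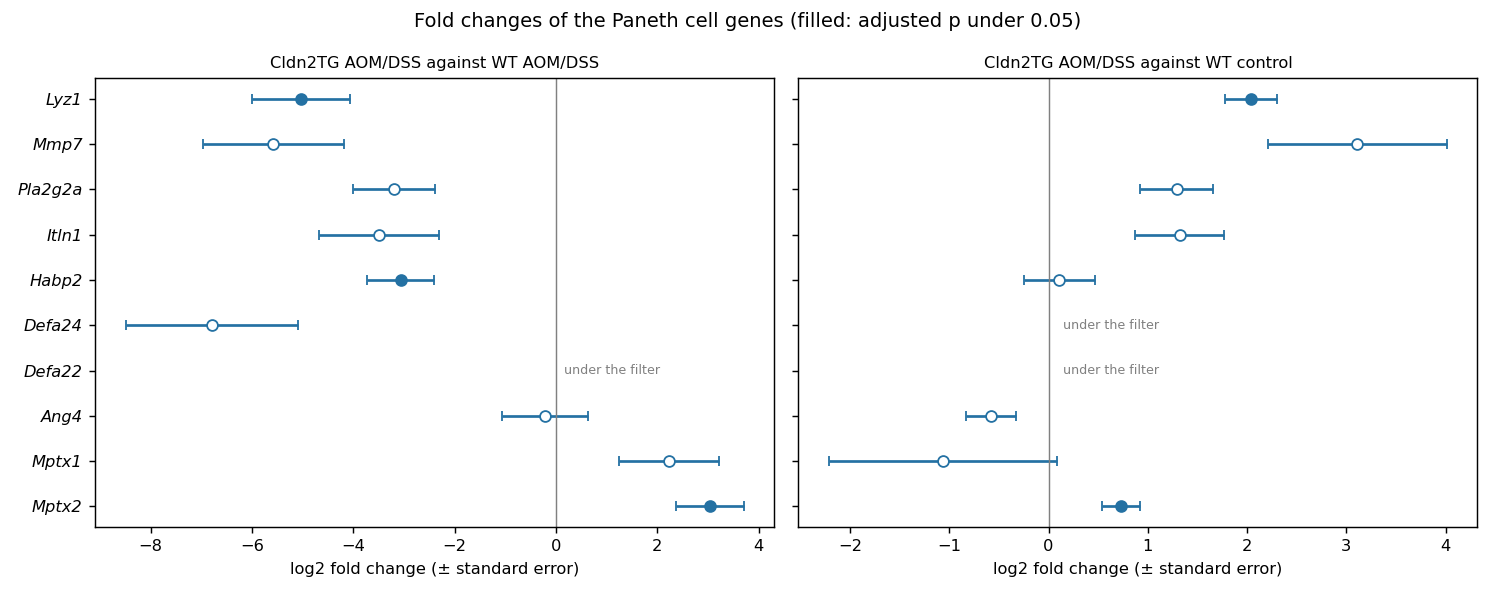
Log2 fold changes of the members with their standard errors in *Cldn2*TG AOM/DSS against WT AOM/DSS mice (left) and against WT control mice (right), n = 3 mice a group. Filled points passed the test and open points did not. *Lyz1* and *Habp2* are filled on the left below 0 and *Lyz1* on the right above 0, and *Mptx2* is filled above 0 on both sides.

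The other genes of the Paneth cell program were taken from lists of general knowledge. Of 13 further granule and marker genes, 9 were tested in WT AOM/DSS against WT control mice, and 3 rose and none fell. They were *Pnliprp2*, a pancreatic-type lipase (log2 fold change 4.63, adjusted p = 0.00492, edgeR), *Reg3g*, a bactericidal lectin (7.21, adjusted p = 0.0378), and *Dmbt1*, a mucosal scavenger protein (0.84, adjusted p = 0.0443). Without mouse 1, *Pnliprp2* alone of the 3 was called, and the log2 fold changes were 4.52, 7.44 and 0.84. *Pnliprp2* was high in the mice in which *Lyz1* was: 2.54, 3.06 and 3.34 CPM in the WT control mice, 39.6, 59.9 and 119 CPM in the WT AOM/DSS mice and 4.48, 4.81 and 4.95 CPM in the *Cldn2*TG mice. *Pnliprp2* and *Dmbt1* fell in *Cldn2*TG against WT AOM/DSS mice (log2 fold changes -3.95 and -0.93, adjusted p = 0.00681 and 0.0356), 2 of 8 tested. In *Cldn2*TG against WT control mice 0 of 8 passed in edgeR, where 1 had an unadjusted p under 0.05, and 0 in DESeq2. *Cd24a*, a surface marker that Paneth cells share with other crypt cells, was at 268 to 443 CPM throughout and passed in no comparison.

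Genes that specify or feed the Paneth lineage form another list. Of 22 tested in WT AOM/DSS against WT control mice, 3 rose: *Wnt3*, the Wnt ligand that Paneth cells make for stem cells, *Atg16l1*, an autophagy gene needed for granules, and the Notch ligand *Dll4*. Without mouse 1 their log2 fold changes were 4.83, 0.70 and 0.71, against 4.80, 0.59 and 0.62 with it, and *Atg16l1* was called. *Wnt3* had 1, 2 and 0 counts in the WT control mice, 17, 14 and 46 counts in the WT AOM/DSS mice and 5, 9 and 5 counts in the *Cldn2*TG mice, the same order of groups as *Lyz1* and *Mmp7*. In *Cldn2*TG against WT AOM/DSS mice 1 of 21 was called, *Ephb3*, the receptor that keeps Paneth cells at the crypt base, which rose by 0.62 (adjusted p = 0.019). Against WT control mice 6 of 21 rose and none fell, with *Dll4* (0.72, adjusted p = 0.0105), *Sox9*, the transcription factor that Paneth cells need (0.61, adjusted p = 0.0109), and *Fgfr3* (0.55, adjusted p = 0.0114) first, and 5 of 21 rose without mouse 1, these 3 among them. *Sox9* was at 72.9 to 83.4 CPM in the WT control mice and at 99.2 to 127 CPM in the *Cldn2*TG mice, whereas all alpha-defensins together were at 0.344, 0.811 and 0.369 CPM there. The transcription factors *Cdx1* and *Xbp1*, the most abundant of this list, passed in no comparison.

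Markers of other cells also moved between the groups, and their part in the results for the members was not tested. Of 10 macrophage markers, 7 rose in WT AOM/DSS against WT control mice and 7 fell in *Cldn2*TG against WT AOM/DSS mice, with *Cd68*, *Csf1r* and *C1qb* among both. Without mouse 1 the log2 fold changes of the 7 over WT control mice were 1.65 to 2.17, against 1.40 to 2.04 with it, and *Lyz2* alone was called, in a fit that called fewer genes in all. In *Cldn2*TG against WT control mice *Cd14* fell (log2 fold change -0.44, adjusted p = 0.0274, edgeR), without mouse 1 as well. Their summed level was 166 to 201 CPM in the WT control mice, 219 to 472 CPM in the WT AOM/DSS mice and 111 to 157 CPM in the *Cldn2*TG mice. Mouse 6 was the highest in 7 of these 10 genes with mouse 4 the lowest, as in the members, and in 4 of the 4 stomach epithelium markers with at least 10 counts in the WT AOM/DSS mice. Neutrophil markers summed to 2.03 to 51.4 CPM in the WT AOM/DSS mice and to at most 0.825 CPM in the others, but peaked in mouse 5, not mouse 6. Of 6, *S100a8*, *S100a9* and *Csf3r* rose over WT control mice (log2 fold changes 6.57, 5.92 and 3.88). Without mouse 1 they were at 6.25, 6.14 and 4.44 and not called.

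Epithelial keratins and adhesion genes summed to 16098 to 19392 CPM in the WT AOM/DSS mice, against 15861 to 17420 CPM in the WT control mice. Of these 8 markers 0 passed in edgeR, where 3 had an unadjusted p under 0.05, and DESeq2 called 2. Within the epithelium, 2 of 4 colonocyte markers fell in WT AOM/DSS mice, *Car4* (log2 fold change -1.65, adjusted p = 0.0223) and the water channel gene *Aqp8* (-1.51, adjusted p = 0.0415), and both rose in *Cldn2*TG against WT AOM/DSS mice. Without mouse 1 the 2 falls were -1.52 and -1.24 (adjusted p = 0.0701 and 0.11). In *Cldn2*TG against WT control mice no colonocyte marker was called with mouse 1, and without it *Slc26a3* was called higher (log2 fold change 0.84, adjusted p = 0.0265, edgeR). In mouse 6, which was highest in the Paneth cell genes, the summed colonocyte level was lowest, 1215 CPM, against 3273 to 6496 CPM in the WT control and *Cldn2*TG mice. Of 10 goblet and deep crypt secretory cell markers, *Kit* and *Clca1* fell and *Spink4* rose in WT AOM/DSS against WT control mice, with log2 fold changes of -1.23, -0.96 and 0.71. Without mouse 1 these were -1.32, -0.87 and 0.70, and *Kit* was called. *Kit* and *Clca1* rose again in *Cldn2*TG against WT AOM/DSS mice, as did *Mptx2*. In *Cldn2*TG against WT control mice, where *Lyz1* and *Mptx2* were called higher, *Reg4* of the goblet and deep crypt secretory cell list (log2 fold change 0.49, adjusted p = 0.0369, edgeR) and the epithelial genes *Krt8* (0.43, adjusted p = 0.0384) and *Cldn7* (0.31, adjusted p = 0.0483) rose too. Without mouse 1 *Reg4* was called higher and *Retnlb*, of the same list, lower (log2 fold change -1.44, adjusted p = 0.0185). The epithelial genes were then at 0.42 and 0.30 and not called.

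Small intestinal enterocyte markers summed to 204 to 247 CPM in the WT AOM/DSS mice and to 306 to 387 CPM in the WT control mice, a sum that *Slc5a1*, the glucose transporter, made up in large part. Over the 10 tested genes the median log2 fold change was 0.18, with 6 above 0 and 4 below, beside 0.02 for all genes. Of the 10, *Slc5a1* fell and *Slc10a2*, the ileal bile acid transporter, rose, and without mouse 1 their log2 fold changes were -0.66, not called, and 4.38, called. *Slc10a2* was at 3.14, 0.753 and 0.565 CPM in the WT control mice, at 9.7, 12.5 and 18.6 CPM in the WT AOM/DSS mice and at 8.06, 7.25 and 6.87 CPM in the *Cldn2*TG mice. In *Cldn2*TG mice *Slc10a2* (log2 fold change 2.33, adjusted p = 0.0459, edgeR) and *Rbp2* (0.80, adjusted p = 0.0149) rose against WT control mice, with or without mouse 1, and without it *Alpi* fell. The log2 fold changes of *Slc10a2* and *Rbp2* were then 3.5 and 0.86. *Fabp2*, *Slc5a1* and *Fabp6* rose against WT AOM/DSS mice (0.63, 0.50 and 1.35, adjusted p = 0.0254, 0.044 and 0.0493). Of 8 stomach epithelium markers, 2 passed the filter in WT AOM/DSS against WT control mice. *Atp4a*, the proton pump of parietal cells, had 7, 10 and 7 counts in the WT control mice and 11, 13 and 22 in the WT AOM/DSS mice, and was not called (log2 fold change 1.16, adjusted p = 0.158, edgeR). *Muc6*, a gland mucin, had 0 counts in each WT control mouse, 32, 62 and 68 counts in the WT AOM/DSS mice and 2, 1 and 1 counts in the *Cldn2*TG mice. It was called in both comparisons of the WT AOM/DSS mice, and without mouse 1 as well. Each of the other 6 had at most 12 counts in any mouse. Of 12 pancreatic acinar cell markers 1 passed the filter and was not called. Their sum was at most 1.47 CPM in any treated mouse, and 2.94, 3.26 and 0.912 CPM in the WT control mice.

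**Figure D5:**
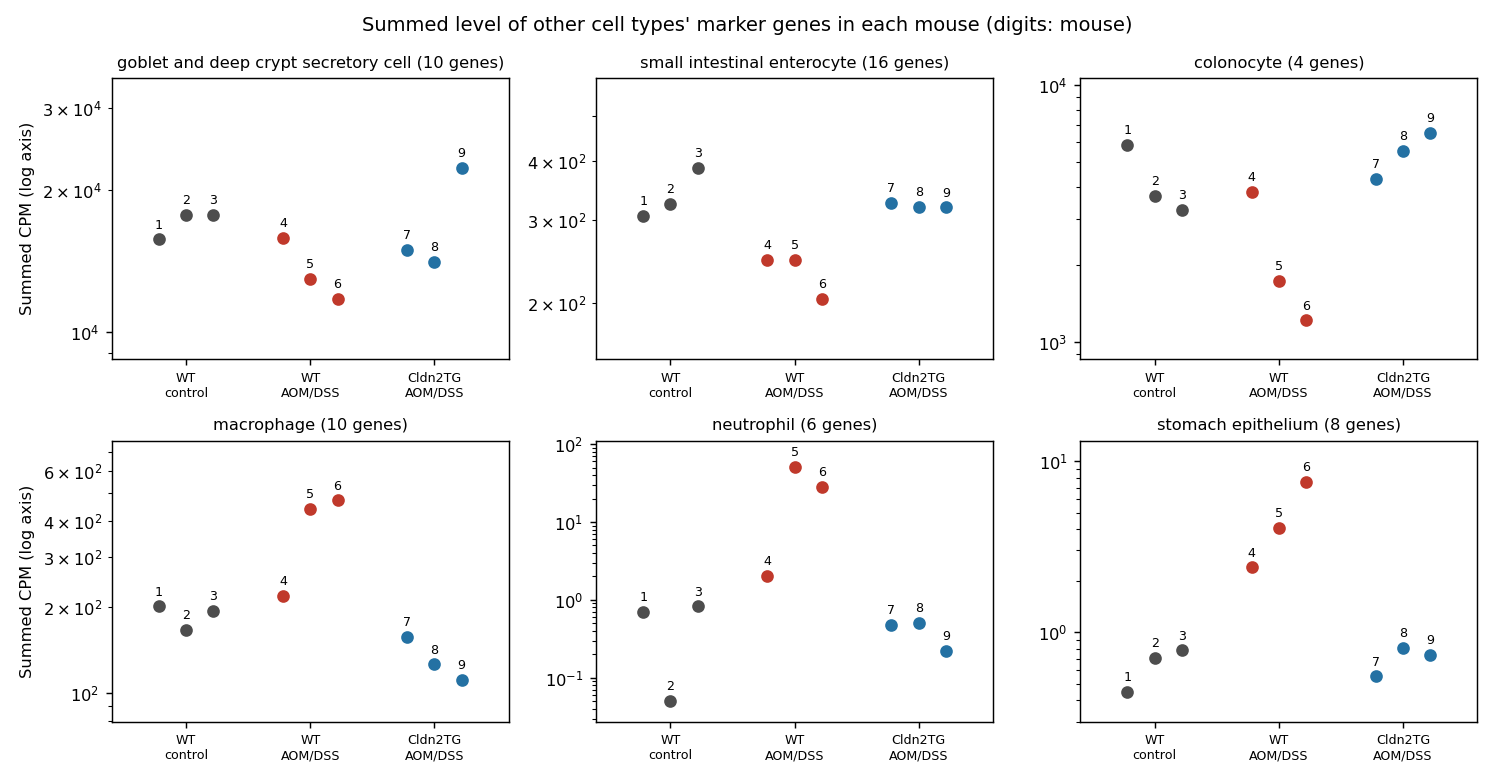
Summed level of the marker genes of 6 other cell types in each mouse, in CPM on log axes that differ between panels; points are mice. Macrophage, neutrophil and stomach markers are higher in the WT AOM/DSS mice than in *Cldn2*TG mice, colonocyte and small intestinal enterocyte markers are lower, and goblet cell markers overlap.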

How the data were processed

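Colon RNA of 9 mice (3 WT control, 3 WT AOM/DSS, 3 *Cldn2*TG AOM/DSS) was sequenced on an Illumina NovaSeq, 1 library per mouse on 2 lanes. The authors deposited raw counts for 47729 genes and 18 library lanes, made with featureCounts of Subread. The methods name TopHat2 and the submitters' processing notes name HISAT2 as the aligner, with GRCm38 as the build; versions and the strand setting are not given in the sources used here. Symbols for 47224 genes came from the GENCODE M21 annotation and the gene name table.

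Lanes of a mouse were added up: of 63 tests of members between lanes (at least 30 counts), 2 had an exact binomial p under 0.05. Each pair of groups was fitted with edgeR 4.0.16 (R 4.3.3) on its 6 mice, with TMM, filterByExpr (minimum count 10, total 15), robust quasi-likelihood dispersions and two-sided tests, Benjamini-Hochberg adjusted over all genes tested. A gene was called at an adjusted p under 0.05. The SE of a log2 fold change was computed back from its test statistic. The code was tested on simulated data. The study's tool, DESeq2 1.42.0, was an alternative, beside library-size and upper-quartile scaling, no filter, each lane alone, a fit of all 9 mice and leaving out each mouse. Limits at 0 are 3 counts per library. Intervals are exact binomial intervals at 95%, given the total of both groups, and cover counting error only.

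Named were all 10 members, the 2 most abundant genes of a list, up to 3 called genes of a list with the smallest adjusted p in each comparison, and the 10 genes most like the members' mean pattern. Genes named beyond that (*Cldn2*, *Xist*, *Nrap*, *Pla2g5*, single alpha-defensins, enterocyte markers at few counts, and some called genes of a list) were chosen after their values were seen. The members and lists were chosen with earlier results of these data known. One marker gene is not reported here and was left out of its list. P-values measure the spread between the mice.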

Additional observations from a re-analysis of the deposited data

How the results depend on the processing

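The count of members called depended on the model more than on the scaling. Against WT AOM/DSS mice it was 3, and 7 with DESeq2, 6 with all 9 mice in the fit, 1 with no filter and 0 to 5 when a mouse was left out. Without the 2 alpha-defensins, which pass the filter there only through the mice they were chosen on, these were 3, 6, 5, 1 and 0 to 4. Against WT control mice it was 2, and 5 with DESeq2, 0 with all 9 mice, 7 with no filter (6 without *Defa24*), 1 with library size only and 1 to 3 when a mouse was left out. *Mmp7*, which passes the filter there only through the *Cldn2*TG mice, is among the 5, the 7 and the 3. Over all genes, 1421 were called against WT AOM/DSS mice, and 58 to 2894 when a mouse was left out. DESeq2 called 2072 there, the fit of all 9 mice 2136 and the fit with no filter 1710. Against WT control mice 1501 were called, and 525 to 1383 when a mouse was left out. There DESeq2 called 1794, the fit of all 9 mice 445, the fit with no filter 2567 and that with library size only 1586. For WT AOM/DSS against WT control mice, 2310 were called and 135 to 4080 when a mouse was left out. The cause was not tested.

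The log2 fold change of *Ang4* against WT AOM/DSS mice turned from -0.21 to 1.20 without mouse 6 and 0.06 without mouse 9 (range -0.71 to 1.20). That of *Habp2* against WT control mice turned from 0.11 to -0.04 without mouse 3 (range -0.04 to 0.32 when a mouse was left out) and to -0.00 with library size only. In the 2 comparisons with *Cldn2*TG mice, no other member changed sign under any alternative run. No paired analysis was possible because no replicate number is shared between groups. With 3 mice a group the exact permutation test cannot go below p = 0.1, and depth limits *Defa22*, and *Defa24* outside the WT AOM/DSS mice, to a few counts.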

Other observations

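Genes other than the members were ranked by their likeness to the mean pattern of the 10 members, as Pearson's r over the 9 mice of log2 CPM with the mean of the members' standardised values. That mean takes in *Mptx1*, *Mptx2* and *Ang4*, whose r with *Lyz1* was -0.67, -0.65 and -0.16. It was 1.45 in mouse 6 and 0.43 in mouse 5, and mouse 4 (-0.22) was below mouse 8 (-0.02). The pattern is thus not that of the higher members alone. The 9 points share 3 groups and the widely spread WT AOM/DSS mice, and mouse 6 carries much of any r, so these values are a description with no test. Of 13906 genes ranked, *Defa30*, an alpha-defensin, came first (r = 0.99), at 14.8 CPM in mouse 6 and at most 0.84 CPM in any other mouse. It was followed by *Gm4675* (0.984), *Glo1*, which detoxifies methylglyoxal (0.98), *Pla2g12a*, a secreted phospholipase A2 of another group (0.978), *Aspa*, aspartoacylase (0.978), and *Ptpro*, a receptor tyrosine phosphatase (0.976). *Grn*, the growth factor progranulin (0.974), *Prmt1*, an arginine methyltransferase (0.971), *Zfp428* (0.971) and *Hmgn1*, a nucleosome-binding protein (0.968), complete the 10.

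Some of these genes differed between the mice by far less than the members. *Aspa* was at 3.83, 4.42 and 3.6 CPM in the WT control mice, at 6.86, 12.1 and 49.4 CPM in the WT AOM/DSS mice and at 6.82, 6.69 and 5.69 CPM in the *Cldn2*TG mice. *Pla2g12a* was at 9.9, 8.79 and 9.03 CPM, at 11.4, 15.8 and 35.7 CPM and at 10.1, 9.78 and 11.2 CPM in the same 3 groups. Both were highest in mouse 6. *Glo1* stayed between 84.0 and 112 CPM in all 9 mice, so a high r does not mean a large change. *Reg3b*, a bactericidal lectin induced by inflammation and chosen after its values were seen, had 1, 0 and 4 counts in the WT control mice, 8, 456 and 1983 counts in the WT AOM/DSS mice and 2, 6 and 0 counts in the *Cldn2*TG mice. It was under the filter of each comparison.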
